A study of Macaca mulatta with 64 samples.

Results

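The nuclear-encoded genes of the respiratory chain were followed in CAGE-seq data of rhesus macaque brain. They were taken by name, as every gene outside the mitochondrial genome whose symbol began with NDUF, SDH, UQCR, COX and a digit, or ATP5, together with CYC1 and CYCS. Of the 13269 genes with at least 1 tag cluster (TC), 57 met this rule, among 10069 genes with a symbol. Genes without a symbol could not be found by this rule. No gene with the symbol CYCS had a TC in the table analysed here. The rule used names alone and no measured value, but the genes were chosen with earlier results of these data known. It takes subunits of the 5 complexes as well as factors that build them, and both kinds are described.

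The study compared regions, ages and sexes of the brain. CAGE-seq reads the 5′ ends of polyadenylated RNA that resists a 5′-phosphate-dependent exonuclease, and each TC is a position at which such ends pile up. The 64 libraries came from the neocortex in its occipital (OC), parietal (PC), temporal, prefrontal (PFC) and posterior cingulate (PCC) parts, from CA1 and dentate gyrus (DG) of the hippocampus, and from cerebellar cortex (CB). Healthy, untreated, socially housed females and males of 1, 4, 10 and 20 yr gave 1 library for each region, age and sex. Libraries of the same age and sex form an animal group here, written 1F, 1M and so on, and each of the 8 regions had 8 libraries, 1 from each animal group. The RNA-seq libraries are described as standing for pairs of animals matched by age and sex, and the CAGE-seq libraries as made from these same samples, so a library may hold RNA of more than 1 animal. Without a second library of any region, age and sex, spread within a region is spread between animal groups. Spread over the 64 libraries also holds differences between regions.

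The respiratory chain passes electrons from NADH (complex I) and succinate (complex II) through complex III, cytochrome c and complex IV to oxygen, pumps protons across the inner mitochondrial membrane, and lets ATP synthase (complex V) use the returning protons to make ATP. Most subunits are encoded in the nucleus and imported, while a small core is encoded in mitochondrial DNA. Neurons draw most of their ATP from this chain to restore ion gradients after signalling.

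The level of a gene is the sum of its TCs in TPM, here tags scaled to a fixed total of tags per library (RPM). CAGE counts 1 end per RNA, so levels of different genes were compared without a length correction. A level also holds TCs inside the gene, and whether it scales with gene length was not tested. Values between 0 and 1 TPM are not listed in the table, so a gene at 0 may still have weak TCs. The depth differed widely between libraries: 1 tag was worth 0.164 to 0.662 TPM, and a TC needed 2 to 7 tags to be listed. A library listed from 644 to 23670 TCs, a number that did not follow depth alone. The CB library of 10-yr-old females listed 644 TCs at 0.173 TPM per tag. In CA1 the library of 20-yr-old males listed 8474 at 0.319 TPM per tag. CA1 listed the most TCs in each of the 8 animal groups, 12036 ± 5290 per library (SD, n = 8), against 3609 ± 1816 in DG (n = 8). CB carried some of the markers fixed for it, and no markers were fixed for any other region, so those labels were not checked in this way. CBLN1, CBLN3 and CALB1 of cerebellar granule and Purkinje cells were higher in CB than in the other 7 regions by 9.20, 9.02 and 6.14 on the log2 scale. Brain pieces hold several cell types, so fewer cells of a type and less RNA per cell cannot be told apart.

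Most of the summed level came from few genes. The 57 genes together held 10583 ± 4734 TPM (SD, n = 64 libraries), from 3326 to 28266, which was 1.86% ± 0.744 of the TPM listed for all genes. NDUFB9, NDUFA6 and NDUFB1, accessory subunits of complex I, held 34.8% of this sum, and the 10 genes with the highest means held 63.8%. NDUFB9 was the highest of the 57 genes in 27 libraries, NDUFA6 in 20 and NDUFB1 in 8. The 19 complex I genes held 56.6% of the sum, the 13 assembly factors 13.5%, the 9 complex V genes 12.3%, the 7 complex IV genes 11.0%, the 5 complex III genes 5.13% and the 4 complex II genes 1.47%. Many subunits are missing from these shares. Of the names listed for complex I, 19 of 37 were found with a TC, for complex IV 7 of 18, and for complex III with cytochrome c 5 of 11. The shares therefore depend on which subunits were found by symbol.

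**Figure D1:**
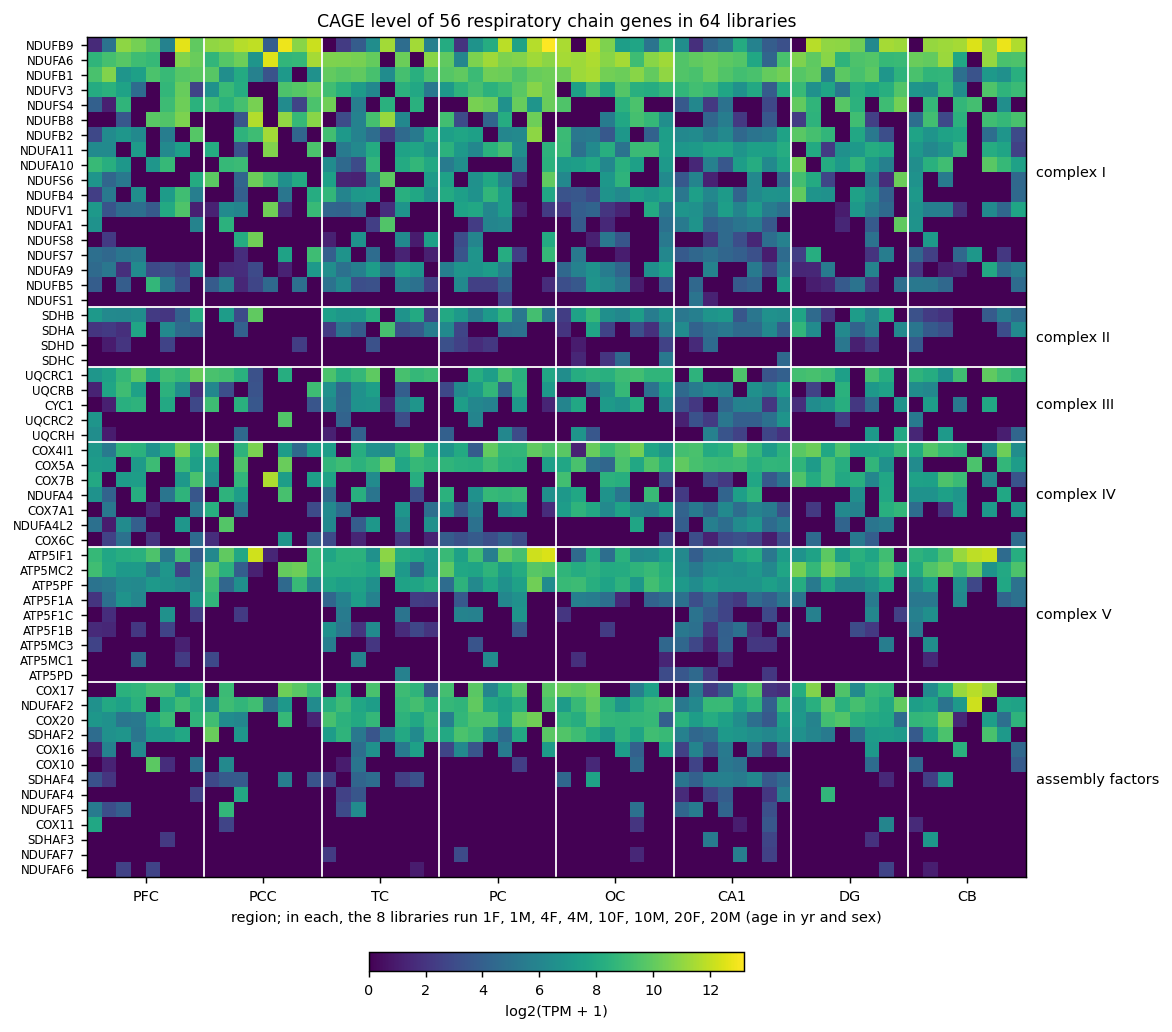
The level of 56 of the 57 genes (rows, by role and then by mean level) in each of the 64 libraries (columns, by region, then age and sex) as log2(TPM + 1). TC on this axis is temporal cortex. Dark cells are genes with no TC listed, and no gene is listed in all 64 libraries.

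Complex I, which oxidizes NADH, had the widest range of levels. NDUFB9 had 1701 ± 2114 TPM over the 64 libraries, with a median of 909 and a highest value of 9331 in the PC library of 20-yr-old males. NDUFA6 had 1224 ± 1022 TPM with a median of 1008, and NDUFB1 755 ± 585 TPM with a median of 700.1 (n = 64 each). The SD of NDUFB9 was above its mean, and 49 of the 57 genes shared this feature, so a mean over libraries describes few of them. NDUFS1, the largest iron-sulfur subunit of the core, was listed in 3 libraries with a mean of 0.622 TPM. NDUFV1, the core subunit that binds NADH, had 90.3 ± 198 TPM.

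Complex II, succinate dehydrogenase, is shared with the tricarboxylic acid cycle. Its iron-sulfur subunit SDHB had 110 ± 163 TPM and its flavoprotein SDHA 41.8 ± 101 TPM. The membrane anchors SDHD and SDHC were listed in 17 and 5 libraries, with means of 1.96 and 1.37 TPM (n = 64 each). In complex III, the core protein UQCRC1 had 342 ± 291 TPM, the ubiquinone-binding protein UQCRB 89.6 ± 138 and cytochrome c1, CYC1, 77.2 ± 114.

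In complex IV, cytochrome c oxidase, COX4I1 had 453 ± 412 TPM, COX5A 323 ± 287 and COX7B 179 ± 412. Pairs of isoforms could be set side by side only in part. NDUFA4, now counted as a subunit of complex IV, had 108 ± 159 TPM in 35 libraries, and its paralog NDUFA4L2 33.3 ± 107 TPM in 23 libraries. COX7A1, known as the isoform of heart and skeletal muscle, had 62.0 ± 95.6 TPM in 42 libraries. COX4I2, COX6A1, COX6A2, COX6B1, COX6B2, COX7A2, COX8A and COX8C were not among the 57 genes and were not analysed here.

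In complex V, ATP synthase, the inhibitor ATP5IF1 had 662 ± 1242 TPM and the subunit c gene ATP5MC2 411 ± 383 TPM. ATP5PF, a stalk subunit, had 174 ± 200 TPM. The alpha subunit ATP5F1A and the beta subunit ATP5F1B, which carries the catalytic sites, had 27.9 ± 58.2 and 6.71 ± 17.4 TPM. ATP5MC1, ATP5MC2 and ATP5MC3 encode the same mature peptide in mammals and differ in their import sequences. ATP5MC2 was listed in 63 libraries, ATP5MC3 in 14 and ATP5MC1 in 9, with means of 4.27 and 2.85 TPM for the last pair. The authors kept uniquely mapped reads, so tags in stretches that such near-identical genes or their pseudogenes share are lost, and the order of these genes is uncertain. Among the factors taken by name, COX17, a copper chaperone for complex IV, had 445 ± 650 TPM, NDUFAF2, an assembly factor of complex I, 389 ± 591 and COX20, which helps to mature a complex IV core subunit, 304 ± 305.

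Tags of these genes lay closer to annotated starts than those of genes at large. Within 500 nt of the start lay 85.1% ± 6.14 of the genes' TPM (SD, n = 64 libraries), against 53.5% ± 3.69 for all genes, and the share was above that of all genes in 64 of 64 libraries. Per gene, the median share was 96.9% over the 57 genes and 13.3% over all 13269, and among the genes that passed the expression filter below it was 97.1% and 35.8%. More than 90% of the TPM lay within 500 nt for 34 of the 57 genes (59.6%) and for 3335 of all genes (25.1%). Under 10% lay there for 6 of the 57 genes (10.5%) and for 6399 of all genes (48.2%). The spans of the 57 genes were shorter, with a median of 11113 nt against 23475, and they had more TCs, 20 against 6 in the median. Among genes that passed the expression filter the median numbers of TCs were 21 and 16. Joining positions less than 20 nt apart left 481 of the 1268 TCs of the 57 genes, and 91612 of the 160389 of all genes. The excess in TCs therefore lies in part in neighbouring positions. No test across genes was made, since genes are not replicates, and the part of gene span and level in the difference was not tested.

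**Figure D2:**
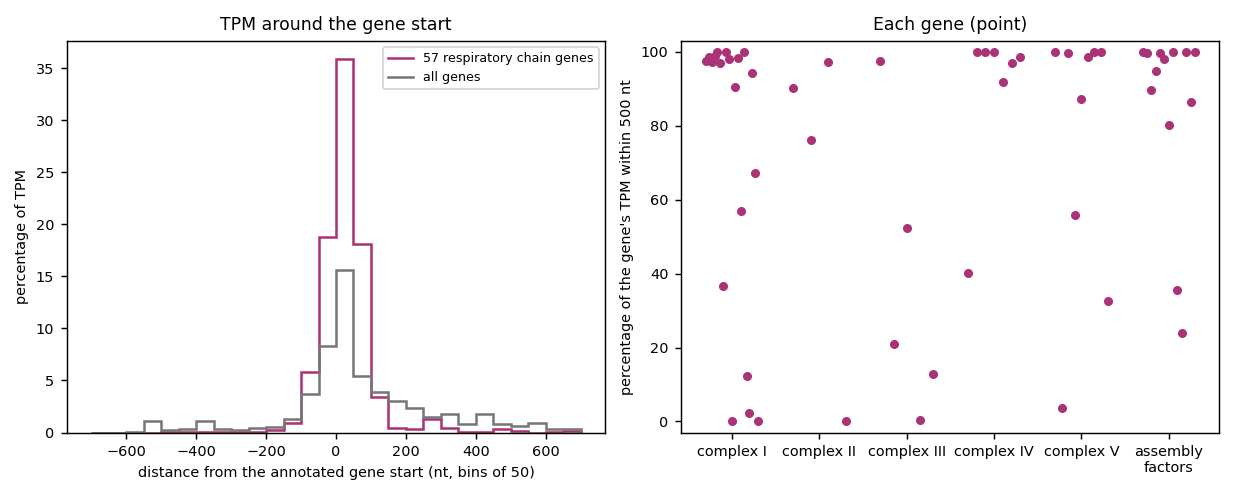
Left, the percentage of TPM in bins of 50 nt around the annotated gene start, for the 57 genes and for all 13269. Right, the percentage of each gene's TPM within 500 nt of its start, 1 point per gene, by role. Most points lie above 90%, and 6 genes lie under 10%.

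A few genes departed from this pattern or were extreme in it. NDUFA6 (ENSMMUG00000013060, chromosome 10, 86054037 to 86063234, minus strand, MMUL 1.0 as for all positions here) had 96.4% of its TPM at a single TC, at position 86063257, 23 nt before its annotated start and listed in 57 libraries. ATP5MC2 (ENSMMUG00000016241, chromosome 11, 50750698 to 50761810, minus strand) had 91.9% of its TPM at position 50754873, 6937 nt inside the gene, a TC listed in 62 libraries. UQCRC2 had 0.296% of its TPM within 500 nt and its main TC at 650 nt, and for NDUFS7 the values were 2.17% and 9073 nt. COX4I1 had the most TCs, 135, of which 50 lay within 500 nt of the start, followed by NDUFB2 with 55. With positions as given, the main TC of COX4I1 lay 17 nt before the annotated start and held 16.3% of its TPM. With neighbouring positions joined, the TC there held 38.1% and was listed in 49 libraries. The joined TC 6029 nt inside the gene held 38.3% and was listed in 44 libraries, and that at 6772 nt held 16.2%. The main TC of COX4I1 therefore depends on whether positions are joined. COX5A, NDUFA1 and ATP5IF1 had 100% of their TPM within 500 nt. The annotated spans were used as given and whether they miss a start was not tested. The main TC of NDUFS8 lay inside the span of TCIRG1 on the same strand, so its tags may belong to either gene.

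How many of the 57 genes a library listed followed its number of TCs. A library listed 31.4 ± 8.35 of the 57 genes (SD, n = 64), from 10 in the CB library of 10-yr-old females to 47 in the CA1 library of 20-yr-old females. Over the 64 libraries, the number of genes listed and the log2 number of TCs had a Pearson r of 0.941 and a Spearman rho of 0.915, a description that rests on libraries of unequal depth. The genes were listed more often than others: 55.0% ± 14.6 of the 57 genes were listed per library, against 20.7% ± 11.0 of all genes, and the first share was the higher in 64 of 64 libraries. Still, 34 of the 57 genes (59.6%) were listed in at least 32 libraries and none in all 64. Of all genes, 1847 (13.9%) were listed in at least 32 libraries.

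By region, the summed level was lowest in CA1. It ranged from 3326 to 6315 TPM in CA1, with a median of 5766, and from 6944 to 13640 in DG, with a median of 10092 (n = 8 each). These groups did not overlap, and CA1 was below DG in 8 of 8 animal groups and the lowest of the 8 regions in 6. The other regions overlapped widely. The medians were 7361 in PFC, 8085 in temporal cortex, 10586 in OC, 11308 in PC, 12506 in CB and 13674 in PCC, with ranges of 5247 to 19249, 6847 to 11954, 9267 to 18068, 6035 to 28266, 6027 to 20163 and 6525 to 19733 TPM. Neighbours in this order did not differ beyond their spread, except that all values of CA1 lay below those of DG, OC, temporal cortex and PCC. Without NDUFB9 the mean was 5457 ± 929 TPM in CA1 and 8618 ± 2447 in DG (n = 8 each), and CA1 was again the lower in 8 of 8 animal groups. The summed level went against the number of TCs: over the 64 libraries the Pearson r with the log2 number was -0.706 and the Spearman rho -0.787. CA1 libraries, with the most TCs, stand at 1 end of that relation, so the region and the number of TCs listed cannot be told apart here.

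**Figure D3:**
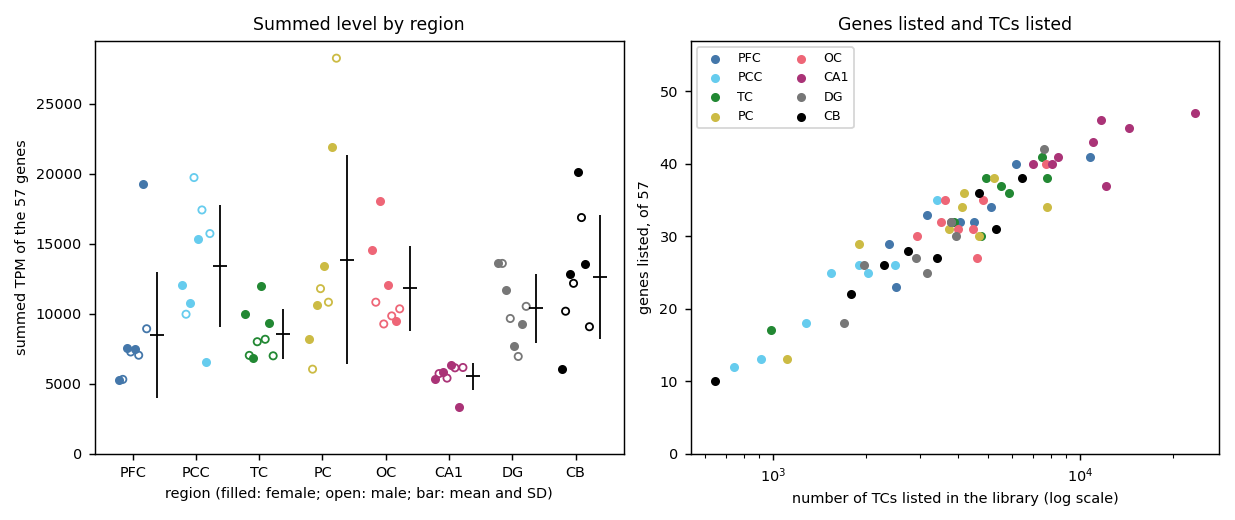
Left, the summed TPM of the 57 genes in each library by region, with the mean and SD beside the points. Right, the number of the 57 genes listed against the number of TCs listed per library (log scale), coloured by region, where TC is temporal cortex. The CA1 libraries have sums of up to 6315 TPM and list 37 to 47 genes.

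The complexes did not share 1 order of regions. The complex I sum was 2770 ± 565 TPM in CA1 and 8716 ± 3784 in PCC, the lowest and highest regional means. Complex IV was more even, from 897 ± 734 TPM in PFC to 1474 ± 972 in PCC, with 1210 ± 446 in CA1. The complex II sum was lowest in CB, 31.1 ± 35.6 TPM, and highest in temporal cortex, 235 ± 190 (n = 8 each). COX7B was listed in none of the 8 PC libraries, and in 35 of the 64 in all. As listed, genes of the chain also varied together only weakly. The median Spearman rho over pairs of the 50 genes tested below was 0.0475 across the 64 libraries, and 0.127 over pairs of all genes tested. With region means subtracted these values were 0.0395 and 0.0619. The pairs share libraries and depth, and many values are 0 because weak TCs are not listed, so they are a description. The part of these zeros in the low rho was not tested.

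For tests, a gene had to reach 1 TPM in 8 or more libraries, which left 6106 genes, of which 50 belonged to the 57. The 7 left out were NDUFS1, SDHC, ATP5PD, COX11, SDHAF3, NDUFAF6 and NDUFAF7, each listed in 3 to 7 libraries. Differences between regions were taken within animal groups on log2(TPM + 1) and tested over the 8 groups with limma. Called genes are those with a p under 0.05 after Benjamini-Hochberg adjustment over all 6106 genes. Whether the level of all genes moved matters for each comparison, since the median gene was not at 0. It stood at 1.37 on the log2 scale in CA1 against DG, 0.55 in hippocampus against neocortex, -0.43 in CB against the other regions, -0.30 between older and younger animals and -0.19 between females and males.

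CA1 and DG, both fields of the hippocampus, gave the most calls. Of the 50 genes 8 were called, 16% against 15.5% of all 6106 genes, so the chain was called about as often as genes at large. SDHAF4, UQCRC2, NDUFV1, ATP5F1A and ATP5F1B were among those higher in CA1, and ATP5MC2 and NDUFS4 were lower. That is 6 of 50 higher against 14.5% of all genes, and 2 of 50 lower against 1.03%. The log2 difference was above 0 for 34 of the 50 genes (68%) and for 82.9% of all, with medians of 0.57 and 1.37. Of all 947 genes called, 93.3% were higher in CA1, but 70.9% of the 175 called after quantile normalization, which sets the median of all genes at 0.12 and of the 50 genes at -0.33. In that setting 1 of the 50 genes was called, ATP5MC2. With the log2 number of TCs as a covariate 1 was called, SDHAF4, and the medians were 0.25 for all genes and -0.74 for the 50. The median of the 50 genes thus turned from above 0 to below 0 in both settings, while it stayed below that of all genes.

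SDHAF4 (ENSMMUG00000029592, chromosome 4, 67009536 to 67188396), an assembly factor for the flavoprotein of complex II, was listed in 8 of 8 CA1 libraries, from 11.6 to 69.8 TPM with a median of 39.2. In DG it was listed in 1 of 8 libraries, at 1.86 TPM. The groups did not overlap, and the log2 difference was 4.88 ± 0.66 (SE, n = 8 animal groups, limma, adjusted p = 0.00224). UQCRC2 (ENSMMUG00000018287, chromosome 20, 20363350 to 20394613), a core protein of complex III, went from 1.31 to 113 TPM in CA1 with a median of 15.2. It was listed in 1 DG library, at 3.67 TPM, and in no OC library. Its values overlapped in part, with a log2 difference of 3.69 ± 0.73 (SE, n = 8, limma, adjusted p = 0.0103), and it was higher in CA1 in 8 of 8 animal groups. The calls of SDHAF4 and UQCRC2 held when any animal group was left out, with adjusted p up to 0.00859 and 0.0285. Listed in 15 libraries in all, UQCRC2 had too few outside CA1 to pass the filter. The call of UQCRC2 is therefore given as a count and not read as a result. The TPM within 500 nt of the start of UQCRC2 passed no filter, so its call rests on tags farther inside the gene. After quantile normalization the log2 differences of SDHAF4 and UQCRC2 were 2.62 and 1.44, and neither was called (adjusted p = 0.118 and 0.367).

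The NADH-binding subunit of complex I was called higher in CA1. NDUFV1 (ENSMMUG00000018526, chromosome 14, 6837702 to 6843832) went from 27.4 to 164 TPM in CA1 with a median of 81.1, and from 0 to 139 in DG with a median of 0.5. In DG 4 libraries listed no TC, the ranges overlapped, and CA1 was the higher in 7 of 8 animal groups. The log2 difference was 3.95 ± 1.00 (SE, n = 8, limma, adjusted p = 0.0251). The call was lost without any of the animal groups 1F, 1M, 4F, 4M or 20M, with adjusted p up to 0.0680. With the number of TCs as a covariate the difference was 0.58 (adjusted p = 0.906).

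The alpha and beta subunits of ATP synthase, which form its head, were also called higher in CA1. ATP5F1A (ENSMMUG00000003570, chromosome 18, 39134934 to 39147056) went from 3.64 to 37.96 TPM in CA1 with a median of 17.9, and in DG was listed in 2 of 8 libraries, up to 40.5. ATP5F1B (ENSMMUG00000001027, chromosome 11, 53724857 to 53734352) went from 0 to 37.9 TPM in CA1 with a median of 14.4, and in DG was listed in 2 of 8 libraries, up to 7.36. The ranges overlapped for both, and CA1 was the higher in 6 of 8 animal groups. The log2 differences were 2.63 ± 0.80 and 2.67 ± 0.82 (limma, adjusted p = 0.0466 and 0.0473). Each call held only when 10M was left out and was lost in the other 7 fits that left out an animal group, with adjusted p up to 0.104 and 0.111. ATP5F1A also lost its call in the model of 64 libraries with animal group as a term (adjusted p = 0.1402). Its log2 difference was 0.23 after quantile normalization (adjusted p = 0.867), 0.40 with the number of TCs as a covariate (adjusted p = 0.9295) and 0.62 for the TPM within 500 nt of the start (adjusted p = 0.6365). For ATP5F1B these values were 0.80, 1.78 and 2.67, and only the last was called (adjusted p = 0.0419).

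ATP5MC2 and NDUFS4 were the genes lower in CA1. ATP5MC2 went from 40.7 to 212 TPM in CA1 with a median of 89.6, and from 253 to 1469 in DG with a median of 626. These ranges did not overlap, and the log2 difference was -2.70 ± 0.66 (limma, adjusted p = 0.0225), lower in CA1 in 8 of 8 animal groups. Since its tags lie far inside the gene, the TPM within 500 nt of the start gave 0.49 instead (adjusted p = 0.752). Its call was lost without 1F, 4F or 4M, with adjusted p up to 0.0553. NDUFS4 (ENSMMUG00000004861, chromosome 6, 51219337 to 51335764), an accessory subunit of the NADH-oxidizing arm, went from 0 to 67.7 TPM in CA1 with a median of 4.83, and from 0 to 1371 in DG with a median of 470.2. The ranges overlapped, since NDUFS4 was at 0 in 2 DG libraries, and the log2 difference was -4.58 ± 1.29 (adjusted p = 0.0359). Its call held without 4F and without 10M and was lost in the other 6 such fits, with adjusted p up to 0.102, and it was lost in the model of 64 libraries with animal group (adjusted p = 0.115). With the number of TCs as a covariate the difference was -1.80 (adjusted p = 0.801). NDUFB9, the gene with the highest mean, was not called, with a log2 difference of -4.26 ± 1.57 (adjusted p = 0.0807), 2.46 to 277 TPM in CA1 and 0 to 3534 in DG.

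**Figure D4:**
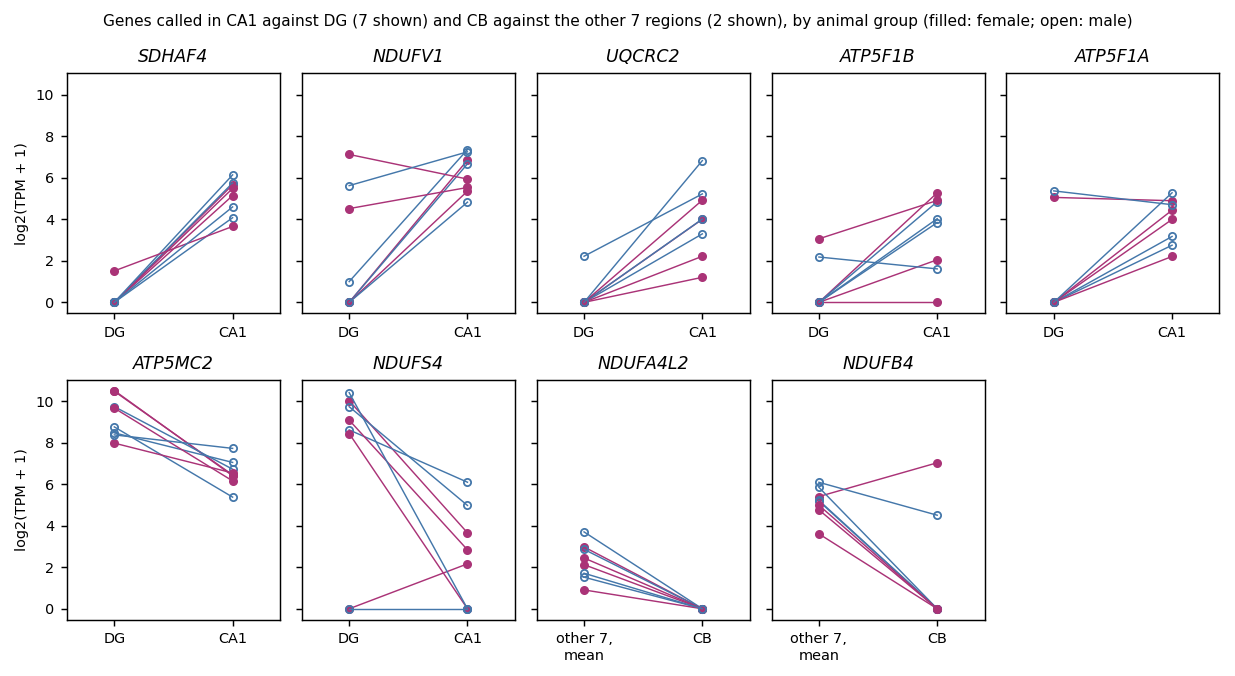
Levels of 9 called genes as log2(TPM + 1), 1 line per animal group. The first 7 panels set DG against CA1, and the last pair sets the mean over the other 7 regions against CB. SDHAF4 and ATP5MC2 are the panels in which the values of CA1 and DG do not overlap.

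Markers of other cells moved between CA1 and DG too. The summed level of the 6 oligodendrocyte markers with a TC, of 8 in the list, ranged from 4997 to 8204 TPM in CA1 and from 736 to 4047 in DG, and 2 of the 4 tested, MOBP and CNP, were called higher in CA1, as were SYT1 and NEFL of 9 neuronal markers and CSF1R of 2 microglial markers tested, where 14.5% of all genes were. For the 7 astrocyte markers with a TC the ranges were 324 to 1212 TPM in CA1 and 138 to 1487 in DG, with 1 marker at 0 in all CA1 libraries and 2 at 0 in all DG libraries. Of the 6 tested, SLC1A2 was called higher and ALDH1L1 lower in CA1, by 3.12 ± 0.84 and -2.91 ± 0.66 on the log2 scale (adjusted p = 0.0309 and 0.0173). The part of cell makeup and of the number of TCs in the 8 calls was not tested.

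**Figure D5:**
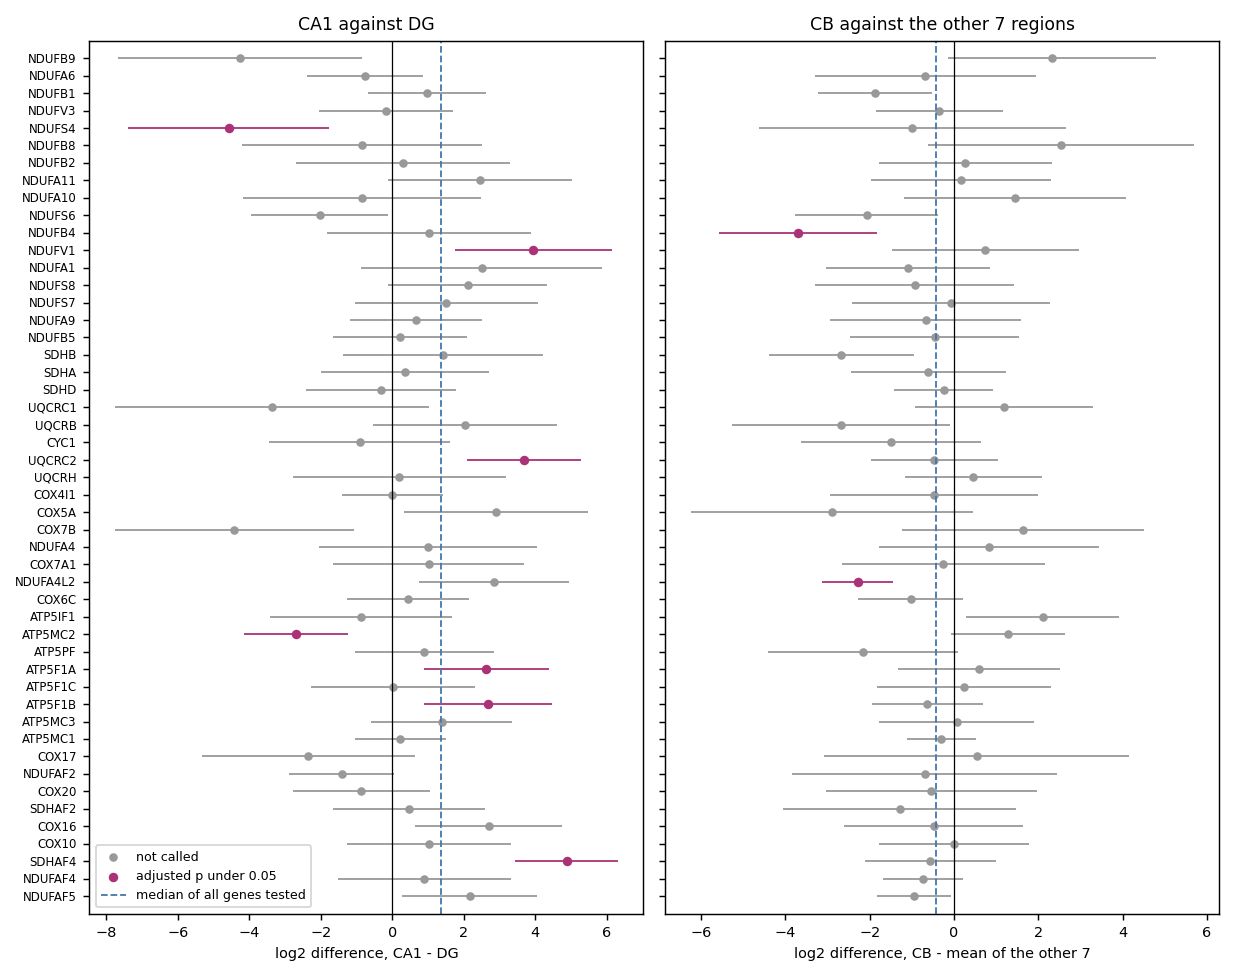
Log2 differences of 49 of the 50 genes tested, with 95% confidence intervals (bars), for CA1 against DG (left) and CB against the other 7 regions (right). Genes with an adjusted p under 0.05 are coloured, 7 on the left and 2 on the right, and the dashed line is the median of all 6106 genes, 1.37 and -0.43.

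In CB against the other 7 regions 2 of the 50 genes were called, 4%, against 4.65% of all genes. Both were lower in CB, a side to which 4.13% of all genes fell, against 0.524% on the higher side. The log2 difference was above 0 for 18 of the 50 genes (36%) and for 34.6% of all, with medians of -0.46 and -0.43. NDUFA4L2 (ENSMMUG00000021786, chromosome 11, 54303337 to 54305855), the hypoxia-responsive paralog of NDUFA4, was listed at 0 in 8 of 8 CB libraries, so no fold can be given. It was listed in 23 of the 56 other libraries, from 1 of 8 in PCC, PC and OC to 7 of 8 in CA1. Its highest value was 809 TPM in PCC, 215 in OC, 127 in temporal cortex, 122 in PFC, 120 in CA1, 46.7 in DG and 29.6 in PC. It passed the filter through these regions alone, so no difference could be above 0, and its call is given as a count and not read as a result. NDUFB4 (ENSMMUG00000001592, chromosome 2, 40647164 to 40653045), an accessory subunit of complex I, was listed in 2 of 8 CB libraries, up to 131 TPM, against 44 of the 56 others. CB overlapped the other regions, and the log2 difference was -3.70 ± 0.83 (limma, adjusted p = 0.0378), lower in CB in 7 of 8 animal groups.

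Both calls in CB were lost in a model of the 64 libraries with region and animal group as terms, with adjusted p = 0.27 for NDUFA4L2 and 0.053 for NDUFB4, in which 136 of all genes and 0 of the 50 were called. With no animal-group term the adjusted p was 0.27 and 0.0504. In the model of 64 libraries the share of higher genes among those called was 39.7%, against 11.3% of the 284, and with the number of TCs added it was 67.7% of 158, so the direction in which most calls in CB went turned with the model. NDUFB4 was called in 2 of the 8 fits that left out an animal group, without 1F and without 20M, with adjusted p from 0.00577 to 0.0973. SDHB, the iron-sulfur subunit of complex II, missed the threshold with a log2 difference of -2.67 ± 0.76 (adjusted p = 0.0778). ATP5IF1 had the smallest p among genes above 0, with 2.10 ± 0.81 (adjusted p = 0.166), from 23.5 to 4259 TPM in CB. The mitochondrial genome, which encodes subunits of complexes I, III, IV and V, was at its lowest in CB. Its 31 genes with a TC summed to 4981 ± 2603 TPM in CB against 12324 ± 4466 in DG and 34318 ± 10428 in PC (n = 8 each), and 2 of 27 tested were called lower. These are all genes of that genome with a TC and not only those of subunits, so the sum is not a level of the chain. Over the 64 libraries the sums of nuclear and mitochondrial genes had a Pearson r of 0.276 and a Spearman rho of 0.190. The summed level of the 9 cerebellar markers with a TC, of 11 in the list, ranged from 2463 to 3648 TPM in CB, with 0 of them at 0 in all CB libraries, and from 0 to 771 TPM in the other regions. For the 7 astrocyte markers with a TC it was 122 ± 110 TPM in CB, from 0 to 344, with 3 markers at 0 in all CB libraries. The means of the other regions went from 50.8 ± 124 in PCC, with 5 markers at 0, to 776 ± 394 in DG (n = 8 each). All 6 astrocyte markers tested were below 0 in CB, and ALDH1L1 was called lower (-2.64 ± 0.59, adjusted p = 0.0381). The part of cell makeup in both calls was not tested.

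The use of TCs within a gene was compared between CB and the other regions with diffSplice of limma. Its model takes the 64 libraries as units, so its p-values do not measure the spread between animal groups. Among 1265 genes that had 2 or more TCs listed in 8 or more libraries, 11 were called (0.87%), and 0 of the 24 genes of the chain among them. Of these 24, the smallest adjusted p was 0.168, for UQCRC1, and 5 had an unadjusted p under 0.05. When positions less than 20 nt apart were joined first, 32 of 1539 genes were called (2.08%). The chain genes tested there were again 24, but not all the same ones. Of them 2 were called, NDUFB9 (adjusted p = 0.000885) and ATP5IF1 (adjusted p = 0.00545). In that setting NDUFB9 had 5 joined TCs in at least 8 libraries. The one 69 nt inside the start held 94.6% of the gene's TPM in CB and 46.2% in the other regions, and the one 29 nt inside held 3.98% and 48.4%. The former led in each of the 7 CB libraries that listed the gene, from 71.2% to 100%, with a median of 97.5%. In the 53 other libraries that listed the gene it went from 0% to 100% with a median of 0%, so the groups overlapped. The pooled shares elsewhere rest on few libraries, since the TC at 69 nt was listed in 17 and that at 29 nt in 14 of the 53, and the median share of the latter was 0% too. For ATP5IF1 the TC 254 nt inside the start held 8.23% of the TPM in CB and 31.9% elsewhere, and the one 21 nt inside 67.1% and 34.8%. The latter was listed in 3 of 8 CB libraries and 5 of 52 others, with a median share of 0% in both, so its pooled shares come from few libraries. The median share of the TC at 254 nt was 20.1% in CB and 94.6% elsewhere, with a range of 0% to 100% in both groups. Both calls rest on joined positions, since neither gene was called with positions as given.

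Between hippocampus and neocortex 0 of the 50 genes were called by limma, against 2.6% of all 6106 genes, 2.42% higher and 0.18% lower in the hippocampus. Among all called genes 93.1% of 159 were higher there, and 75.7% of 37 after quantile normalization. At an unadjusted p under 0.05 there were 11 of 50, 22%, against 20.6% of all genes. The log2 difference was above 0 for 31 of the 50 genes (62%) and for 77.5% of all, with medians of 0.32 and 0.55. The median of the 50 genes was -0.05 after quantile normalization and -0.20 with the number of TCs as a covariate, where that of all genes was 0.03 and 0.01. SDHA came closest, with 2.15 ± 0.61 (adjusted p = 0.0679). It was listed in all 8 CA1 libraries, from 14.7 to 81.2 TPM, and in 1 of 8 PCC libraries. Without the animal-group term it was called in a model of the 64 libraries (adjusted p = 0.0444).

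Between animals of 10 and 20 yr and those of 1 and 4 yr no gene was called by limma on the 8 animal-group means over regions, 0% of all 6106 genes and 0 of the 50. At an unadjusted p under 0.05 there were 549 of all genes (8.99%) and 7 of the 50 (14%). A random effect of the animal group over the 64 libraries called 15 of all genes and 0 of the 50. The log2 difference was above 0 for 10 of the 50 genes (20%) and for 28.8% of all. NDUFB9 had the smallest p of the 50, with 1.94 ± 0.52 (adjusted p = 0.355). Its mean over the regions was 667 TPM in 1F, 1008 in 1M, 1719 in 4F, 1489 in 4M, 1812 in 10F, 1268 in 10M, 3038 in 20F and 2606 in 20M. On the TPM scale 10M lay below both groups of 4-yr-old animals, so the ages overlapped. NDUFB2, ATP5F1A, CYC1, UQCRB and NDUFAF5 had log2 differences between -1.14 and -1.58, and NDUFB8 2.14, with adjusted p from 0.394 to 0.550. The summed level was 8974 ± 558 TPM in animals of 1 yr, 10467 ± 80.7 in those of 4 yr, 11099 ± 981 in those of 10 yr and 11791 ± 297 in those of 20 yr (SD, n = 2 animal groups for each age). Without NDUFB9 these sums were 8137 ± 799, 8863 ± 82.0, 9559 ± 596 and 8969 ± 602. The number of TCs per library differed between these ages as well, with means of 5689, 5109, 3970 and 4926 in the same order.

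Between females and males no gene was called by limma either, 0% of all genes and 0 of the 50, and the random effect called 0. At an unadjusted p under 0.05 there were 321 of all genes (5.26%) and 4 of the 50 (8%). Among these were CYC1, COX16 and UQCRB, each with a lower estimate in females, -2.28 ± 0.53, -1.58 ± 0.43 and -1.60 ± 0.47 (adjusted p = 0.924 for each). On the log2 scale the animal-group means of CYC1 were 3.26, 4.56, 1.99 and 1.12 in females of 1, 4, 10 and 20 yr, and 4.59, 6.25, 5.89 and 3.34 in males, lower in females at each age.

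Other genes of mitochondrial energy supply, from lists written with earlier results of these data known, were called in small numbers, where 4.65% of all genes were called in CB, and 14.5% higher and 1.03% lower in CA1 than DG. Of 15 tested assembly factors outside the rule, 0 were called in CB and 2 higher in CA1 than DG, BCS1L, which inserts the iron-sulfur protein of complex III, by 3.36 ± 0.85 (adjusted p = 0.0246) and ECSIT of complex I by 3.90 ± 1.12 (adjusted p = 0.0375). Of 20 genes of pyruvate dehydrogenase and the tricarboxylic acid cycle, 0 were called in CB and 1 in CA1 against DG, IDH2 (3.13 ± 0.90, adjusted p = 0.0375). Of 11 carriers and channels, TOMM40, the pore of the outer membrane import machinery, was called higher in CA1 (4.51 ± 0.68, adjusted p = 0.00338). Of 13 glycolytic genes, ENO2, the neuronal enolase, was higher in CB (2.66 ± 0.52, adjusted p = 0.0235), and in CA1 GAPDH was lower (-2.62 ± 0.57, adjusted p = 0.0153) and PGAM1 higher (3.92 ± 0.92, adjusted p = 0.0191). Of 6 antioxidant enzymes, TXNRD2 was lower in CB (-1.58 ± 0.35, adjusted p = 0.0360) and GPX4 higher in CA1 (2.01 ± 0.57, adjusted p = 0.0375). The regulators of mitochondrial biogenesis had 2 genes tested of 17, TFAM and ESRRA, and none was called. In hippocampus against neocortex, and by age and sex, no gene of these lists was called.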

How the data were processed

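Per the methods, the authors aligned filtered CAGE-seq reads by TopHat2 and, from reads with a single mapped place, took 5′ ends as start positions, clustered them into TCs in each library and assigned TCs to Ensembl genes of MMUL 1.0. The deposited values are RPM, called TPM by the authors: tags of a TC scaled to a fixed total per library, with positions and gene spans beside them. Low values were whole multiples of a library's tag, within 0.15 of a whole number for 99.95% or more, but the smallest value stood for several tags and counts could not be taken as given, so no count test was run. Each TPM column belonged to a sample.

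TPM were summed per gene. The log2(TPM + 1) values of genes that reached 1 TPM in 8 or more libraries were tested by limma 3.58.1 in R 4.3.3 (two-sided, moderated, Benjamini-Hochberg). Regions were compared as differences within the 8 animal groups, ages and sexes on animal-group means with both as terms, and TC use with diffSplice in a model of 64 libraries. The pairing comes from the design, since all regions were collected from each specimen; residuals of libraries of the same animal group had a median correlation of 0.00879 (224 pairs), and of different groups -0.00171. P-values of the paired differences and of the animal-group means measure the spread between animal groups. Those of diffSplice and of the 64-library models of region rest on the residual spread between libraries. On simulated data for CB, the paired differences recovered fewer changed genes than the 64-library model. They also had the higher share of false calls among their calls. The simulation drew each gene's values at random over the 64 libraries, without animal-group effects, depth differences or unequal spread between regions. It therefore cannot tell which model is the better for these data, and calls of both are given. Genes are named by rule: the 3 with the highest mean per role, called genes, isoform pairs, extremes of TC number and position, and up to 3 genes per other list. SDHB, NDUFB9, ATP5IF1, SDHA and genes of the age and sex comparisons that were not called were named after their values were seen. The genes and lists were chosen with earlier results of these data known. Symbols come from the name table given for this work. Python 3.11.15, pandas 2.3.3, NumPy 2.4.6, SciPy 1.17.1 and Matplotlib 3.10.9 were used. Alternatives are given in the closing section. Sequences of promoters and proteins were not used here, and 1 gene of the chain is counted but its own values are not reported here.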

Additional observations from a re-analysis of the deposited data

Results flagged for a closer look

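Of 34 groups of 8 values checked (the summed level, the number of genes listed and the share within 500 nt in each region, and the differences of the called genes within animal groups), 4 had a value far from the rest by Dixon's ratio, where chance gives about 1.7. The PFC library of 20-yr-old females had a summed level of 19249 TPM, with the nearest PFC library at 8924. The CA1 library of 20-yr-old females had the lowest, 3326 TPM, with the nearest at 5299, and it also listed the most TCs of all libraries, 23670. In temporal cortex the library of 10-yr-old females listed 17 of the 57 genes, with the nearest at 30, and in PC the library of 20-yr-old females listed 13, with the nearest at 29. Both had the fewest TCs of their region, 985 and 1105. No called gene was higher in all groups of a sex and lower in all groups of the other. The same held for younger and older animals. Called genes were chosen for a mean difference in a single direction, so they could hardly show such a split, and nothing is concluded from this.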

How the results depend on the processing

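The median of the 50 genes turned from 0.57 to -0.33 with quantile normalization and -0.74 with the number of TCs in CA1 against DG, and from 0.32 to -0.05 and -0.20 in hippocampus against neocortex. Values of single genes were followed only for chain genes with an unadjusted p under 0.05 in the main fit. Of the 419 such values under other settings 1 reversed, ATP5MC2 in CA1 against DG, at 0.49 with TCs within 500 nt of the start. None of 360 reversed when an animal group was left out. Genes chosen in this way can hardly reverse, and some settings keep the main estimate by design, so no stability is read from these counts. In CB, all genes called were 607 with no filter, 97 with TCs within 500 nt, 136 in the 64-library model with animal group and 158 with the number of TCs added, against 284, and genes of the chain 1, 1, 0 and 0 against 2. Without the replicate block, the pairing by animal group, CB gave 119 and 0, hippocampus against neocortex 508 and 1 (against 159 and 0), and no other count of chain genes moved by over 1.5 times. Hippocampus against neocortex gave 246 genes with a pseudocount of 0.25 TPM, 27 with no filter, 37 with quantile normalization and 500 in the 64-library model with animal group, and 1 chain gene with the number of TCs. CA1 against DG gave 313, 175, 610 and 166 genes with no filter, quantile normalization, TCs within 500 nt and the number of TCs, against 947, and 3, 1, 4 and 1 chain genes against 8. Age gave 15 genes with a random effect. TC use gave 32 genes with joined positions and 2 in at least 16 libraries, and 2 chain genes with joined positions. The share within the start window was 77.5% for 100 nt. Leaving out each animal group gave 167 to 359 genes and 1 to 4 chain genes in CB, 16 to 109 and 0 to 0 in hippocampus against neocortex, 451 to 1113 and 2 to 11 in CA1 against DG, 0 to 1 by age, and 5 to 19 and 0 to 2 in TC use. The cause of these shifts was not tested, except that a fit without a group has fewer samples. CA1 against DG was not run without the PFC library of 20-yr-old females, since its fit holds no PFC library. All results for low genes are limited, since TCs under 1 TPM are not seen.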
